A study of Mus musculus with 9 samples.

Results

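Unedited mouse embryonic stem (ES) cells, the wild type group (WT) of a study of Kif2a, made up 3 of the 9 RNA-seq libraries of the series, and they are described here from the deposited table by its WT columns alone. The other 6 libraries came from the Kif2a knockout lines KO1 (titled C5) and KO2 (titled E5), 3 each. All groups were ES cells labelled 129, a mouse strain background, with no treatment, and differed in the labels by the Kif2a genotype only. The labels do not state whether the libraries within a group came from separate cultures, how the lines were edited or whether each is a single clone, so spreads and p-values measure the differences between these libraries only.

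ES cells are lines from the inner cell mass of the early embryo. They divide without end in culture while keeping the ability to form every tissue of the body. A core of transcription factors, Oct4 (Pou5f1), Sox2 and Nanog, keeps this state and acts on its own genes; the cytokine LIF, signalling through Stat3, helps to hold it in mouse cells, while FGF signalling prepares them to leave it. Many proteins that such cells need exist as families of paralogs or isoenzymes made from separate genes, and a cell type commonly uses a few members of each.

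The recovered depth of the WT libraries was 17179732, 14960295 and 15177354 reads on 15504 gene symbols. Levels of different genes are compared here per length, as TPM, the usual unit of transcript abundance: the reads of a gene per base of its exons, scaled to the same total in every library. They are given as mean ± SD over the 3 libraries (n = 3 throughout). A TPM could be given for 15382 symbols. RNA was measured in bulk, so fewer cells using a gene and less RNA per cell cannot be told apart.

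The 3 ES cell markers were all high. Pou5f1 stood at 2126, 2026 and 2105 TPM in WT libraries 1, 2 and 3, rank 47 of all genes. Nanog stood at 1502, 1507 and 1471 TPM, rank 88. Sox2, the third factor, was lower and less even, at 372, 386 and 308 TPM, rank 414. Pou5f1 was thus 5.25 to 6.83 times as high as Sox2 in the 3 libraries and 1.34 to 1.43 times as high as Nanog, so the order Pou5f1, Nanog, Sox2 held in each. Of 20 other genes known from ES cells, 20 stood above 10 TPM, with a median of 259.7 TPM. Dppa5a, an RNA-binding protein of pluripotent cells, reached 8868 ± 243 TPM, and Zfp42 (Rex1), a zinc-finger marker of the naive state, 1405 ± 36.3 TPM.

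Markers of other cells were low with a few exceptions. Of the 12 fibroblast genes, listed because ES cells are often grown on feeder cells, 7 had a row, with a median of 4.79 TPM. The collagens Col1a1 and Col1a2, which define fibroblasts, stood at 0.587 ± 0.15 and 0.63 ± 0.073 TPM. Fibronectin (Fn1), also on that list, stood at 1002 ± 40.5 TPM; it is not particular to fibroblasts. The next on the list, the collagen Col5a1, stood at 18.1 ± 0.86 TPM. Primitive endoderm genes reached at most 6.42 TPM (Gata4), with 4 of 12 having a row, and their Pdgfra stood at 0.383 ± 0.0191 TPM. Of the trophoblast list 7 of 10 genes had a row, with Tfap2c the highest at 31.7 TPM and Cdx2, a defining factor, at 2.65 ± 0.266 TPM. Among 5 of 10 neuroectoderm genes, the neuronal tubulin Tubb3 stood at 94.3 TPM but Pax6, a defining factor, had 1, 3 and 1 reads. Of 10 primitive streak and mesoderm genes 6 had a row; Gsc (goosecoid) was the highest at 12.1 ± 1.35 TPM, and T (brachyury) stood at 2.46 ± 0.331 TPM. The two-cell-like list, genes of rare ES cells that resemble the cleaving embryo, had 9 of 10 genes in the table and none above 2.65 TPM, and the blood list 3 of 10 and none above 2.89 TPM.

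Genes that most cells use commonly start within stretches rich in CG pairs, while many tissue-specific genes do not. Shown here from RefSeq (GRCm38.p6) are the 250 bases before the start of 3 genes whose levels recur below: Nanog, where capitals mark a match to the joint Sox2 and Oct4 motif, and the pyruvate kinases Pkm and Pklr, where capitals mark each CG pair. They were chosen after their levels were seen.
Nanog: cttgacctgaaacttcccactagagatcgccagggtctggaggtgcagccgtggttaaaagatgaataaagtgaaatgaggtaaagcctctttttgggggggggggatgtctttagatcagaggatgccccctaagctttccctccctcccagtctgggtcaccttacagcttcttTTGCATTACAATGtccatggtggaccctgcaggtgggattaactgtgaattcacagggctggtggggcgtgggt
Pkm: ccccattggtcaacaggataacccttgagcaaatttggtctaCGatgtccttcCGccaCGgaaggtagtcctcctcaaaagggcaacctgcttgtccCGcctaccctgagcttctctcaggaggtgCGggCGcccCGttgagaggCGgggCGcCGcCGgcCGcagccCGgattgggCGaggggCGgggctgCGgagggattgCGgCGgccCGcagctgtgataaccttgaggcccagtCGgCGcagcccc
Pklr: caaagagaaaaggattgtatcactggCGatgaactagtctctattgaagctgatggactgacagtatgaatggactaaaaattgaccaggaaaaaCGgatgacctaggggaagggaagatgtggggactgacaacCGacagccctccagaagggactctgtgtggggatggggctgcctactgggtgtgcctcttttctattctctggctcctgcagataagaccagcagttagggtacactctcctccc
The Nanog window lies at chr6:122707239-122707488, plus strand. The motif searched, on both strands, was CATTGT, any 1 base, then ATGCAA, letters bound by Sox factors followed by letters bound by Oct factors, and the match, on the minus strand, lay 74 to 62 bases before the start. Of all 27025 windows of the same length in the table, 3 (0.0111%) held the motif; those of Pou5f1 and Sox2 did not hold these letters. The Pkm window, at chr9:59656326-59656575 on the plus strand, has 21 CG pairs, and 83.9% of all windows have fewer. The Pklr window, at chr3:89135892-89136141 on the plus strand, has 3, and 29.6% of all windows have fewer; the median of all windows is 6. Pkm, the pyruvate kinase of most growing tissues, stood at 2660, 2644 and 2694 TPM, while Pklr, the form of liver and red cells, stood at 7.03, 8.01 and 6.86 TPM. These windows are shown beside the levels as a description, and their part in the levels was not tested.

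Levels ran from a few very abundant messages to a long low tail. At least 1 TPM was reached by 13093 of 15382 genes (85.1%), at least 100 TPM by 1920 and at least 1000 TPM by 123, with a median of 14.5 TPM. The 10 highest genes together held 7.85 ± 0.0587% of all TPM, the 100 highest 27.6 ± 0.232% and the 1000 highest 60.5 ± 0.186%. The threshold of 1 TPM is a convention. Among the family members listed below, Ago4, Cldn9 and Epha1 stood just inside it at 1.04, 1.06 and 1.15 TPM, and Fgf13, Wnt9a and Slc7a8 just outside at 0.988, 0.979 and 0.974 TPM.

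**Figure D1:**
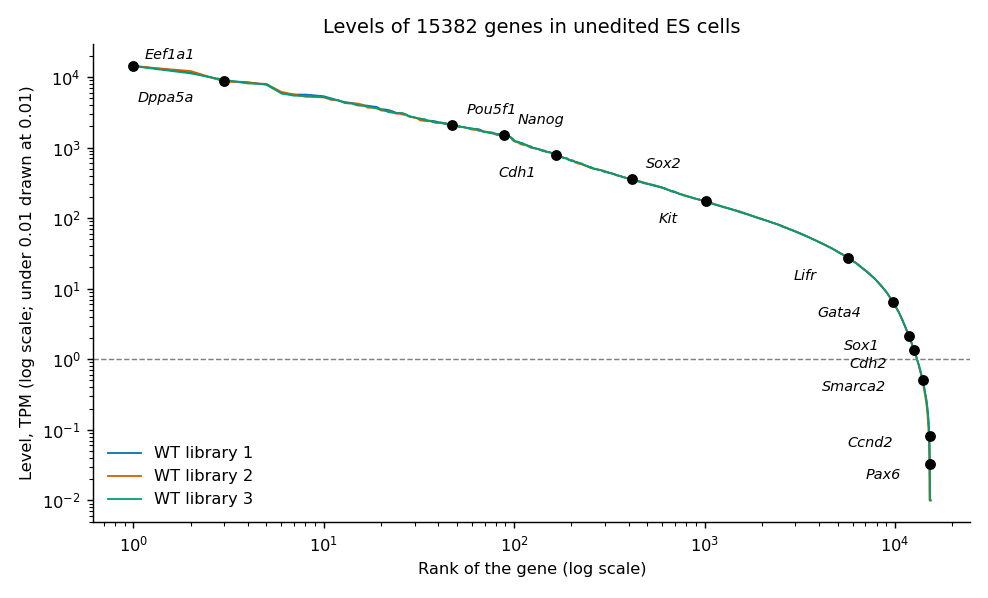
Level in TPM of each gene against its rank, both on log scales, with 1 line per WT library and black points at the mean of named genes; the dashed line marks 1 TPM. The 3 lines lie on each other over most of their length, and the points run from Eef1a1 at 14301 TPM to Pax6 at 0.0325 TPM.

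Protein synthesis led the ranking. Eef1a1, the factor that brings aminoacyl-tRNA to the ribosome, was the highest gene at 14441, 14241 and 14222 TPM. The mitochondrially encoded mt-Co1, a subunit of cytochrome oxidase, followed at 11643 ± 457 TPM, and Dppa5a was the third highest. Hsp90ab1, the constitutive cytosolic chaperone, stood at 7935 ± 176 TPM and Eef2, which moves the ribosome along, at 5427 ± 196 TPM. The other genes among the 20 highest included ribosomal proteins (Rplp1, Rpl4, Rps15, Rpl8, Rpl23a, Rpl32, Rps29, Rpl41, Rpl13a and Rpl19, between 3560 and 8207 TPM), the mitochondrial mt-Nd1 (5709 ± 403 TPM) and mt-Cytb (3968 ± 217 TPM), beta-actin (Actb, 3541 ± 119 TPM) and 1 predicted gene. The 85 cytosolic ribosomal protein genes held 15.6 ± 0.264% of all TPM and the 12 mitochondrially encoded genes 2.69 ± 0.166%. Ribosomal proteins, Eef1a1, Pou5f1 and Nanog have near-identical copies elsewhere in the genome, and how such reads were counted is not given in the sources used here, so their levels are uncertain by that share. Of the long noncoding RNAs, Lncenc1, a transcript named for ES cells, stood at 255, 274 and 267 TPM, rank 612 of all genes. Gas5, Snhg5, Platr10, Snhg3 and Platr3 had ranks 848, 1156, 1165, 1316 and 1459; the Platr names stand for pluripotency-associated transcripts.

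Which members of each family the cells used was read from 124 families with 621 listed genes. Of these, 499 had a row in the table, and 122 had no row in the table analysed here, whose lowest total over the 9 libraries was 14 reads. Of the 499, 433 stood at 1 TPM or more and 66 under it. In 119 families with at least 2 members in the table, the member with the highest mean held a median of 65.5% of the family's summed TPM. It held at least 90% in 22 families, at least 75% in 44 and under 50% in 18. The same member led in all 3 WT libraries in 118 families. The exception was STAT, where Stat2 (54.2 ± 1.54 TPM) and Stat3 (52.5 ± 2.15 TPM) did not differ beyond their spread. With the longest transcript as the length, 111 of the 119 kept their leader; the order turned for STAT, the DNA methyltransferases, cyclins B and D, the monocarboxylate transporters, the pyruvate dehydrogenase kinases, the glutathione peroxidases and the Notch receptors.

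Among the 17 transcription factor families, several were led by members known from the pluripotency network, and others, such as the E2F, SMAD and GATA families, by members not particular to it. Pou5f1 held 93.4 ± 0.327% of the POU domain family, ahead of Pou2f3, known from tuft cells, at 108, 114 and 109 TPM. The neural Pou3f1, Pou3f2 and Pou3f3 stood at 1.5, 1.38 and 0.717 TPM. Sox2 held 67.6 ± 3.53% of the SOX family, followed by Sox15 (62.1 ± 3.77 TPM) and Sox13 (55.7 ± 4.15 TPM), while the neural Sox1 and Sox3 stood at 2.14 and 0.761 TPM. Esrrb, an orphan receptor of the naive state, stood at 432, 425 and 431 TPM and held 95.8 ± 0.156% of its family, against Esrra at 19.1 ± 0.885 TPM. Tfcp2l1, another naive factor, stood at 492 ± 8.77 TPM and held 75.1 ± 0.444% of the grainyhead and CP2 family. The KLF family was shared more widely: Klf2, Klf4 and Klf5, which act together in the naive state, stood at 416 ± 12.2, 226 ± 10.3 and 121 ± 8.61 TPM, and 15 of 15 members in the table reached 1 TPM. Sall4 (216 ± 3.5 TPM) and Sall1 (186 ± 3.87 TPM) were used side by side. Of the MYC genes the cells used Mycn (91.6, 92.4 and 80.6 TPM) and Mycl (47.1 ± 3.11 TPM), while Myc itself stood at 3.81, 4.86 and 5.11 TPM; the 3 libraries of Mycn lay 15.8 to 24 times above those of Myc. Of the WNT-responsive factors, Tcf7l1, which represses targets in the absence of signal, stood at 137 ± 4.01 TPM and Tcf7 at 99.5 ± 4.41 TPM, and Tcf7l2 and Lef1 at 5.76 ± 0.861 and 5.54 ± 0.643 TPM. Gata4, a primitive endoderm factor, led the GATA family at 6.42 ± 0.786 TPM, with Gata3 at 3.66 ± 0.62 TPM. E2f4, a repressor-class member, led the E2F family at 353 ± 8.45 TPM. Smad4, the shared partner of the TGF-beta pathway, led the SMADs at 67 ± 1.93 TPM, with Smad2 and Smad3, which answer Nodal, at 20.9 ± 1.16 and 44.1 ± 1.25 TPM, and Smad1 and Smad5, which answer BMP, at 8.35 ± 0.556 and 13.7 ± 1.04 TPM.

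Chromatin and RNA regulators showed some near-exclusive choices. The SWI/SNF ATPase was Smarca4 (Brg1) at 234, 239 and 242 TPM, against Smarca2 (Brm) with 43, 23 and 33 reads or 0.509 ± 0.118 TPM. Lin28a, which blocks the let-7 microRNAs, stood at 69.9 ± 5.05 TPM and its paralog Lin28b at 1.63 ± 0.396 TPM, so Lin28a held 97.7 ± 0.42%. The maintenance methyltransferase Dnmt1 stood at 282 ± 1.61 TPM, and Dnmt3l, a partner without catalytic activity, at 242 ± 5.13 TPM. The de novo enzymes were uneven, Dnmt3b at 95.3 ± 1.97 TPM and Dnmt3a at 15.3 ± 0.339 TPM. Of the TET dioxygenases, which oxidise methylated cytosine, Tet1 (108 ± 9.05 TPM) and Tet2 (59 ± 4.26 TPM) were used and Tet3 stood at 4.03 ± 0.445 TPM. Cbx7 led the Polycomb CBX proteins at 106 ± 4.8 TPM. The heterochromatin proteins Cbx1 (170 ± 7.2 TPM) and Cbx5 (164 ± 9.28 TPM) were close. Cbx1 was the higher in each library, by a ratio of 1.02 to 1.07, but without length scaling Cbx5 led. Ago2 and Ago1 carried the Argonautes (123 ± 5.37 and 92.9 ± 3.1 TPM), with Ago3 and Ago4 at 4.77 ± 0.43 and 1.04 ± 0.17 TPM. The nuclear lamina was of the B type, with Lmnb1 at 545 ± 17.2 TPM and Lmna, the lamin of differentiated cells, at 22.6 ± 2.14 TPM.

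In the cell cycle, cyclins A and E each had a dominant gene. Ccna2 stood at 150 ± 4.11 TPM and the germline Ccna1 had 7, 0 and 2 reads. Ccne1 stood at 225 ± 8.62 TPM and held 96 ± 0.36% of cyclin E, with Ccne2 at 9.49 ± 1.18 TPM. Ccnd1 and Ccnd3 were used to similar extents (123 ± 4.15 and 109 ± 2.79 TPM), while Ccnd2 had 2, 4 and 4 reads, among the lowest of all members. Cdk4 was the highest of the cell cycle kinases at 624 ± 8.55 TPM and Cdk6, its paralog, stood at 9.33 ± 0.63 TPM. Among the inhibitors, Cdkn1a (p21), a target of p53, stood at 290, 275 and 294 TPM and held 88.9 ± 1.44% of its family, and the Cdkn2a locus stood at 81.9 ± 2.42 TPM. The retinoblastoma protein Rb1 stood at 4.53 ± 0.292 TPM, below its paralogs Rbl1 (25.9 ± 2.86 TPM) and Rbl2 (8.1 ± 0.537 TPM). Aurkc, an Aurora kinase best known from germ cells, stood at 65.1 ± 8.05 TPM beside Aurka (243 ± 2.23 TPM) and Aurkb (105 ± 4.21 TPM).

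In metabolism the leading member held 90% or more in 9 of 31 families, with a median of 74%. Along glycolysis, the message of the glucose transporter Slc2a3 (Glut3) stood at 1004, 980 and 985 TPM and that of Slc2a1 (Glut1) at 392 ± 11.4 TPM, a ratio of 2.43 to 2.58 in the 3 libraries. The insulin-regulated Slc2a4 stood at 1.4 ± 0.46 TPM, and Slc2a9 had reads in WT library 1 only (8, 0 and 0). Hk2 (339 ± 10.7 TPM) led the hexokinases over Hk1 (111 ± 1.3 TPM). Aldoa (3080 ± 61.5 TPM), Eno1 (1550 ± 13.1 TPM), Pgam1 (412 ± 16.6 TPM) and Pkm (2666 ± 25.5 TPM) each held 97.4% to 99.7% of their families. Ldha, which favours lactate, stood at 1866 ± 43.2 TPM and Ldhb at 634 ± 23 TPM. Of the lactate carriers, Slc16a1 stood at 103, 122 and 102 TPM and Slc16a3 at 88.5, 87.7 and 91.5 TPM, so Slc16a1 was the higher in each library.

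**Figure D2:**
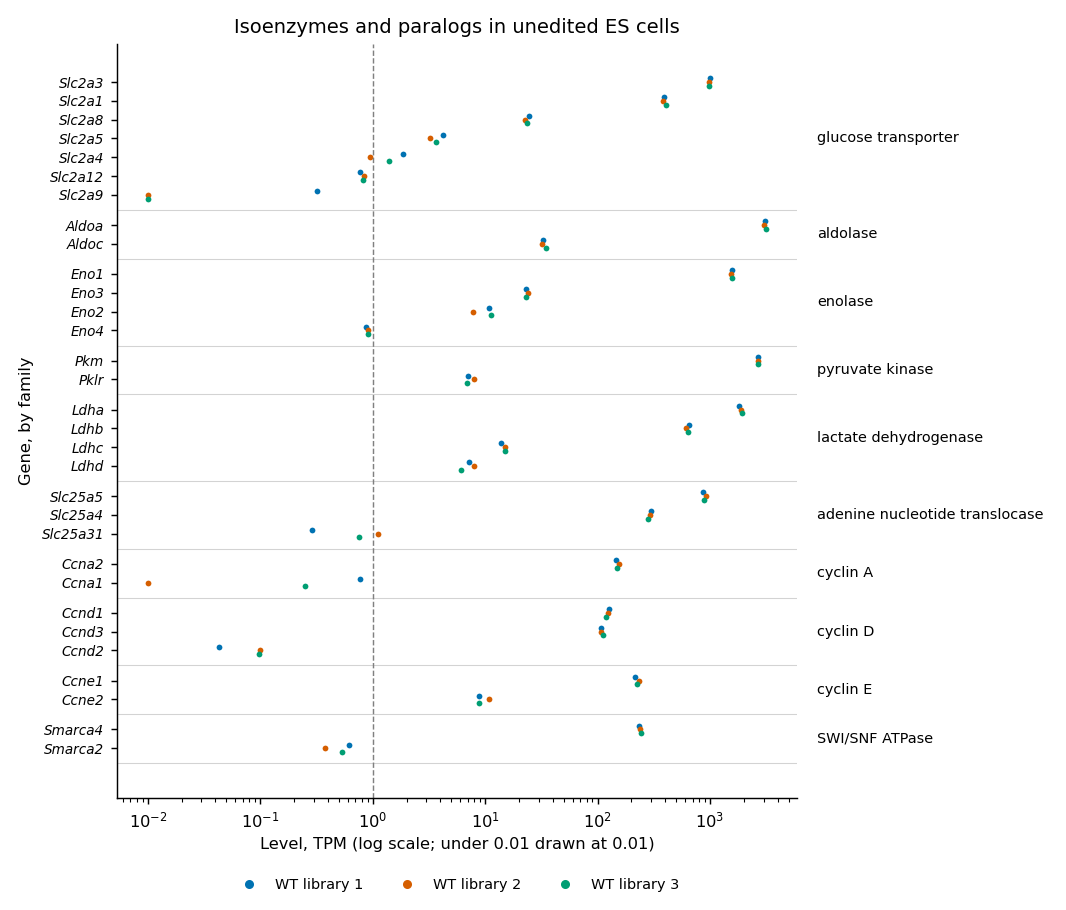
Level in TPM on a log scale (values under 0.01 drawn at 0.01) for the members of 10 families, 1 point per WT library; the dashed line marks 1 TPM. In the pyruvate kinase, aldolase, cyclin A and SWI/SNF ATPase rows the leading gene stands far right of its paralogs, while Ccnd1 and Ccnd3 lie side by side.

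Of the creatine kinases, the brain form Ckb led at 1783 ± 40.9 TPM. Scd2 led the stearoyl-CoA desaturases at 837 ± 23.3 TPM, ahead of Scd1 (181 ± 1.39 TPM). Slc25a5 (892 ± 24 TPM) led the adenine nucleotide carriers over the muscle form Slc25a4 (292 ± 10 TPM), while the testis form Slc25a31 had 3, 10 and 7 reads. A pair of tissue forms of cytochrome oxidase subunits stood above 100 TPM, the muscle form Cox7a1 at 236, 202 and 208 TPM and the testis form Cox6b2 at 124 ± 4.29 TPM. Gpx1 (622 ± 29.9 TPM) and Gpx4 (503 ± 4.15 TPM), which remove peroxides, were close, and Gpx1 was the higher in each library.

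Among the 9 families of translation factors and chaperones, the leading member held a median of 69.1%, and at least 90% in 1. Eif4a1 stood at 1423 ± 15.2 TPM and Rpl3 at 1610 ± 61.4 TPM against its muscle paralog Rpl3l at 5.51 ± 0.727 TPM. Rpl39l, a ribosomal protein paralog best known from the testis, stood at 338, 367 and 378 TPM beside Rpl39 at 414, 428 and 459 TPM; Rpl39 was the higher in each library and held 54.6 ± 0.653%, a share that depends on the length used: it was 73.2% with the longest transcript and 67.5% without length scaling. In the cap-binding family Eif4e2 (97.4 ± 3.19 TPM) stood above Eif4e (57.5 ± 2.58 TPM). The constitutive Hspa8 led the HSP70 family at 1829 ± 45 TPM with 50.2% of it, and the heat-inducible Hspa1a and Hspa1b, near-identical copies whose reads may be split, stood at 0.525 ± 0.202 and 2.52 ± 0.376 TPM. Hspa12b had 0, 1 and 2 reads, the lowest mean of all members.

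Cadherin and claudin genes known from epithelia led their families. E-cadherin (Cdh1) stood at 778, 777 and 769 TPM, held 91.2 ± 0.352% of the classical cadherins, and lay 462 to 772 times above N-cadherin (Cdh2, 40, 47 and 58 reads), the cadherin of mesenchymal and neural cells. P-cadherin (Cdh3) stood at 66.2 ± 2.65 TPM. Of the gap junction genes, Gjb5 stood at 109 ± 4.2 TPM and Gja1 (connexin 43) at 23.7 ± 1.44 TPM. Cldn4 led the claudins of tight junctions at 183 ± 7.07 TPM, followed by Cldn3 at 20.9 ± 5.18 TPM. The keratins of simple epithelia were low, Krt8 at 24.4 ± 1.31 TPM, Krt18 at 10.3 ± 1.57 TPM and Krt7 with 2, 1 and 5 reads. Vimentin (Vim) led the other intermediate filaments at 182 ± 4.97 TPM. The integrin alpha chains were shared between Itga6, Itga5 and Itga3 (56.8 ± 1.67, 50 ± 0.917 and 42.8 ± 0.298 TPM), with Itgb1 their main partner at 174 ± 11.5 TPM.

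Ligands and receptors held 34 of the 66 members under 1 TPM. In the LIF pathway, the signalling chain Il6st (gp130) stood at 47.2, 46.7 and 47.5 TPM and the LIF receptor Lifr at 25.6, 29.3 and 27.2 TPM. The cells made little Lif message themselves, 9.04 ± 1.24 TPM, and more of its relative Osm, 35.4 ± 1.69 TPM. Socs3, a feedback inhibitor that Stat3 induces, led the SOCS family at 186 ± 11.5 TPM. In the FGF pathway, Fgf4 stood at 353, 342 and 336 TPM and held 88.2 ± 0.653% of the FGF ligands in the table. Its receptor Fgfr1 stood at 84.4, 79.5 and 81.9 TPM and held 94.1 ± 0.568%, while Fgfr2, the receptor that marks primitive endoderm, stood at 3.32 ± 0.261 TPM and Fgfr3 had 2, 5 and 8 reads. Of 11 FGF ligands with a row, 7 stood under 1 TPM. Of the Nodal pathway, Nodal itself stood at 160 ± 7.61 TPM, its relative Gdf3 at 189 ± 7.72 TPM, its receptors Acvr1b and Acvr2b at 51 ± 2.07 and 24.8 ± 1.36 TPM, and its inhibitors Lefty1 and Lefty2 at 87.3 ± 7.42 and 300.9 ± 21.5 TPM. Lefty1 and Lefty2 are close copies, so reads may be split between them. BMP ligands were low, with Bmp4 at 13.3 ± 0.972 TPM and Bmp7 at 7.77 ± 0.704 TPM the highest, beside the receptor Bmpr1a at 35.5 ± 2.4 TPM.

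**Figure D3:**
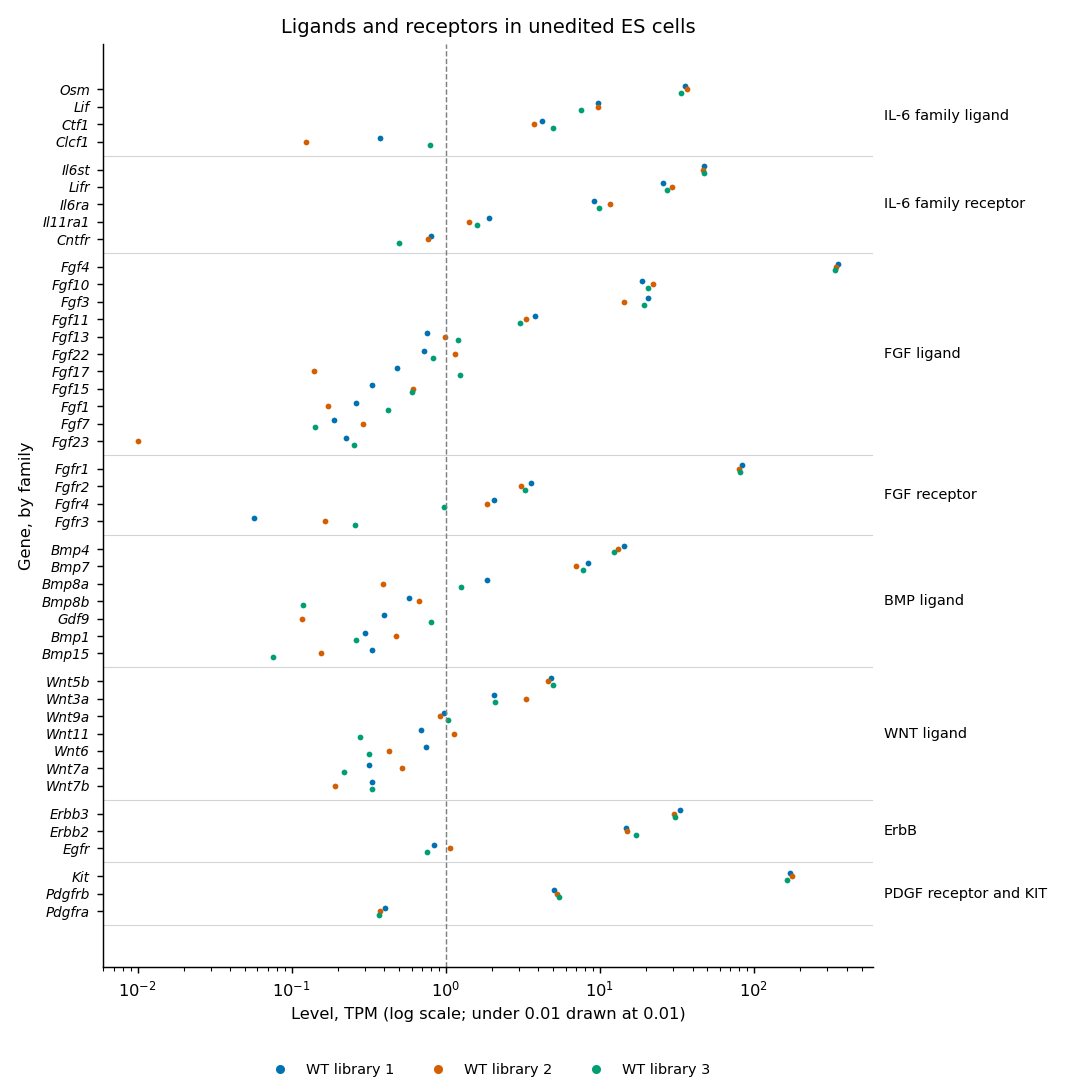
Level in TPM on a log scale (values under 0.01 drawn at 0.01) for the members of 8 ligand and receptor families, 1 point per WT library; the dashed line marks 1 TPM. Fgf4, Fgfr1 and Kit stand apart to the right of their families, and the WNT ligands lie near or under the line.

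WNT ligands were low. Wnt5b led at 4.8 ± 0.177 TPM, followed by Wnt3a with 28, 39 and 25 reads or 2.49 ± 0.722 TPM, and the other 5 with a row stood under 1 TPM. The receptors were well above them, with Fzd10 (82.5 ± 4.78 TPM) and Fzd5 (77.4 ± 1.6 TPM), and 8 of 10 Frizzleds at 1 TPM or more. Of the receptor tyrosine kinases, Kit stood at 173, 178 and 165 TPM, Epha2 at 134 ± 5.15 TPM, Epha4 at 98.2 ± 3.75 TPM, Ephb4 at 66 ± 1.42 TPM and Erbb3 at 31.4 ± 1.63 TPM. Egfr had 47, 51 and 37 reads (0.886 ± 0.157 TPM), the VEGF receptor Kdr stood at 1.52 ± 0.418 TPM and Pdgfra at 0.383 ± 0.0191 TPM. Igf2r, which clears IGF2 from the surface, stood at 81.7 ± 1.95 TPM, against the signalling receptors Insr (6.7 ± 0.603 TPM) and Igf1r (3.81 ± 0.0631 TPM). Irs2 (12.2 ± 1.43 TPM) held 92.7 ± 0.949% of the insulin receptor substrates. Amhr2, the receptor of the anti-Müllerian hormone, stood at 11 ± 1.94 TPM.

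Genes with a partner on the X and the Y chromosome differed in how far the Y copy was used. Ddx3y, an RNA helicase, stood at 44, 50.4 and 45.7 TPM beside Ddx3x at 350, 375 and 346 TPM. Eif2s3y, the gamma subunit of eIF2, which starts translation, stood at 61, 64.1 and 63.4 TPM beside Eif2s3x at 160, 170 and 159 TPM, so the X copy held 72.1 ± 0.608%. Uty and Kdm6a stood at 6.52 ± 1.17 and 27.6 ± 1.17 TPM. Kdm5d and Usp9y were near 0, with 15, 16 and 15 reads and 5, 4 and 1 reads, against Kdm5c at 164 ± 1.38 TPM and Usp9x at 103 ± 8.37 TPM. X and Y copies share sequence, so reads may pass between them. Among the kinesin-13 motors, which depolymerise microtubule ends, the gene the study removed was not the highest: Kif2c (MCAK) stood at 134, 139 and 142 TPM and held 75.8 ± 1.05%, Kif2a stood at 33.3, 38.4 and 34.7 TPM, and Kif24 at 8.59 ± 0.0482 TPM.

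The 66 members near 0 had at most 51 reads in any WT library, and 4 of them had 3 or fewer in each. At such counts a mean can rest on 1 library, as for Slc2a9, so their order is not given. For other listed genes there was no row in the table analysed here, among them Eef1a2, Actl6b, Pgk2, Mat1a and Cox6a2, tissue-specific copies of Eef1a1, Actl6a (207 ± 0.807 TPM), Pgk1 (993 ± 6.83 TPM), Mat2a (222 ± 10.7 TPM) and Cox6a1 (1051 ± 26.9 TPM).

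The spread between the 3 WT libraries was small for most genes. Among 10189 genes with a mean deposited value of at least 10, the median SD of log2(value + 1) was 0.0724, after rescaling the libraries by median ratios, and the median coefficient of variation was 5.17%. Because the spread falls with the level, each gene's SD was divided by the median SD of the genes nearest in level, which is called its relative spread. It was at least 3 in 62 genes (0.609%). Of these, 32 were also found without the rescaling, which gave 41 genes. WT library 2 was the farthest from the other 2 in 44 of the 62, higher in 28 and lower in 16; over all genes it was the farthest and higher in 21.4% and the farthest and lower in 20.4%.

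**Figure D4:**
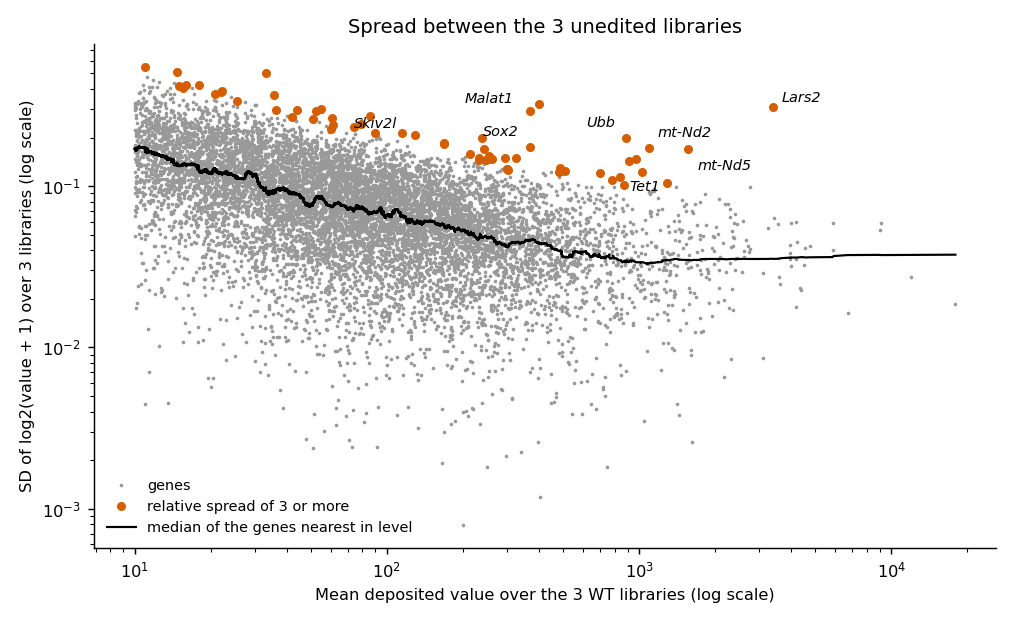
SD of log2(value + 1) over the 3 WT libraries against the mean deposited value, both on log scales; the line is the median of the genes nearest in level and coloured points have a relative spread of 3 or more. Lars2 stands highest among abundant genes, and the spread falls with the level along the line.

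The gene of highest relative spread with a mean value of at least 100 was Lars2, the mitochondrial leucyl-tRNA synthetase (chromosome 9, 123366927 to 123462666, plus strand). Its deposited values were 3590, 3912 and 2649 in WT libraries 1, 2 and 3, a relative spread of 8.73, with WT library 3 the lowest. A predicted gene, passed over by name here, had values of 414, 478 and 313 and a relative spread of 7.29. Why WT library 3 was the lowest for both was not tested. Malat1, a nuclear long noncoding RNA, had values of 334, 311 and 464, with WT library 3 the highest. The polyubiquitin gene Ubb had 961, 740 and 961, with WT library 2 the lowest. The mitochondrially encoded mt-Nd2 (1067, 1217 and 985) and mt-Nd5 (1552, 1740 and 1409), subunits of complex I, were highest in WT library 2, and 3 of 8 mitochondrially encoded genes in the ranking had a relative spread of 3 or more. Sox2 was among the 15 highest: its values were 390, 392 and 321, a relative spread of 3.79, with WT library 3 the lowest. Pou5f1 and Nanog, by comparison, had relative spreads of 1.21 and 0.59. The others among the 15 were Rps10, Ppp1cb, Tmsb10, Naa50, Slc25a36, Skiv2l, Mtf2, Ctc1 and Tet1, with WT library 2 the farthest in all of them but Tet1, where WT library 1 was the lowest (779, 893 and 845).

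Of the same 62 genes, 7 had a relative spread of at least 3 among the 3 KO1 libraries and 4 among the 3 KO2 libraries, which did not choose them; over all genes these shares were 0.447% and 0.397%. The medians of the 62 were 1.28 in KO1 and 1.24 in KO2, against 1 for all genes. Lars2 stood at 4.66 in KO1 and 0.959 in KO2, and Malat1 at 7.38 and 1.5. Transcript length moved with the libraries: in the shortest of 5 length classes the median deviation was −0.0162 on the log2 scale in WT library 2 and 0.0132 in WT library 1, and in the longest class 0.0176 and −0.0134. The 28 genes that were farthest and higher in WT library 2 had a median longest transcript of 4395 bases, and 15 of the 16 lower ones, those with a length, 3055 bases, against 3476 over all genes; its part in the spread was not tested. The genes of lowest spread with a mean value of at least 500 were Nisch, Bcat1, Usp10, Dnmt1, Ubap2, Rps27a, Ctnnd1, Btf3, Cct2 and Tardbp. Dnmt1 had values of 1054, 1030 and 1059, a relative spread of 0.104, and 0.694 in KO1 and 0.755 in KO2. Ctnnd1, by comparison, was low in each group, with relative spreads of 0.257 in KO1, 0.232 in KO2 and 0.113 in WT. In KO1 and KO2, Nisch stood at 1.85 and 2.01, Bcat1 at 0.86 and 0.493, and Usp10 at 2.5 and 0.616. Ubap2 stood at 1.79 and 0.85, Rps27a at 0.933 and 2.68, and Btf3 at 0.238 and 1.2. Cct2 stood at 0.673 and 0.662 and Tardbp at 2.06 and 2.05. These genes were chosen for the lowest spread in the WT libraries, so values nearer to 1 in other libraries are likely from the choice alone. No conclusion is thus drawn from them.

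Where the WT levels held in the knockout lines was asked with limma over 10225 genes, with Benjamini-Hochberg adjustment. Both comparisons use the same 3 WT libraries. Kif2a stood at 0.275, 0.358 and 0.293 TPM in KO1 and at 0.328, 0.217 and 0.528 TPM in KO2, against 33.3, 38.4 and 34.7 TPM in WT. The log2 change was −5.85 ± 0.18 for KO1 (limma adjusted p = 1.73e-32) and −5.75 ± 0.18 for KO2 (limma adjusted p = 4e-32). Kif2c stood at 137 ± 3.1 TPM in KO1 and 129 ± 3.77 TPM in KO2, against 138 ± 4.34 TPM in WT. The background was 110 genes called in KO1 (1.08%; 86 or 0.841% higher, 24 or 0.235% lower) and 1888 in KO2 (18.5%; 1120 or 11% higher, 768 or 7.51% lower). With median-ratio scaling the split was 62 higher and 42 lower in KO1 and 894 higher and 1023 lower in KO2. The KO1 count moved to 55 and 50 without KO1 replicate 1 or 2, to 73 and 65 without WT replicate 2 or 3, and to 168 without KO2 replicate 3.

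For the 121 tested leading family members, KO1 had 5 calls, or 4.13%, with 3 up and 2 down. KO2 had 54 calls, or 44.6%, with 33 up and 21 down. These shares were 4.18% and 32.6% for all 359 listed members tested, and 1.08% and 18.5% for all genes tested. Leading members were chosen for a high level, where the spread is smaller and a call is more likely. No conclusion is thus drawn from their shares. Their median log2 change was 0.0164 in KO1 and 0.0237 in KO2, beside 0.0215 and 0.0152 over all genes. The leading member was the WT one in 118 of 119 families in KO1 and in 114 in KO2. The changes of order given next depend on the length used. With the longest transcript as the length, Gpx4, Ccnd3, Slc16a3 and Pdk1 led their families in WT too. Without length scaling, Ccnd3, Pdk1 and Bmp7 led theirs in WT. Gpx1 averaged 507 ± 23.9 TPM in KO1, 389 ± 22 TPM in KO2 and 622 ± 29.9 TPM in WT, and Gpx4 556 ± 2.37, 566 ± 32.7 and 503 ± 4.15 TPM, so Gpx4 led in both lines. The log2 change of Gpx1 was −0.29 ± 0.05 for KO1 (limma adjusted p = 4.07e-05) and −0.65 ± 0.05 for KO2 (limma adjusted p = 2.71e-16). In KO2 alone, Ccnd1 averaged 88.2 ± 5.62 TPM, against 123 ± 4.15 TPM in WT (−0.46 ± 0.05, limma adjusted p = 4.82e-10), which put it below Ccnd3 at 110 ± 5.76 TPM. Slc16a3 averaged 121 ± 6.49 TPM in KO2, against 89.2 ± 2 TPM in WT (0.47 ± 0.05, limma adjusted p = 4.82e-10), and stood beside Slc16a1 at 118 ± 4.41 TPM. Pdk1, an inhibitor of pyruvate oxidation, averaged 36.2 ± 3.53 TPM in KO2, against 27.6 ± 0.35 TPM in WT (0.41 ± 0.06, limma adjusted p = 3.01e-06), and passed Pdk3 at 29.5 ± 1.66 TPM. Bmp7 averaged 11.9 ± 0.787 TPM in KO2, against 7.77 ± 0.704 TPM in WT (0.61 ± 0.12, limma adjusted p = 0.000207), and passed Bmp4 at 9.61 ± 0.258 TPM.

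**Figure D5:**
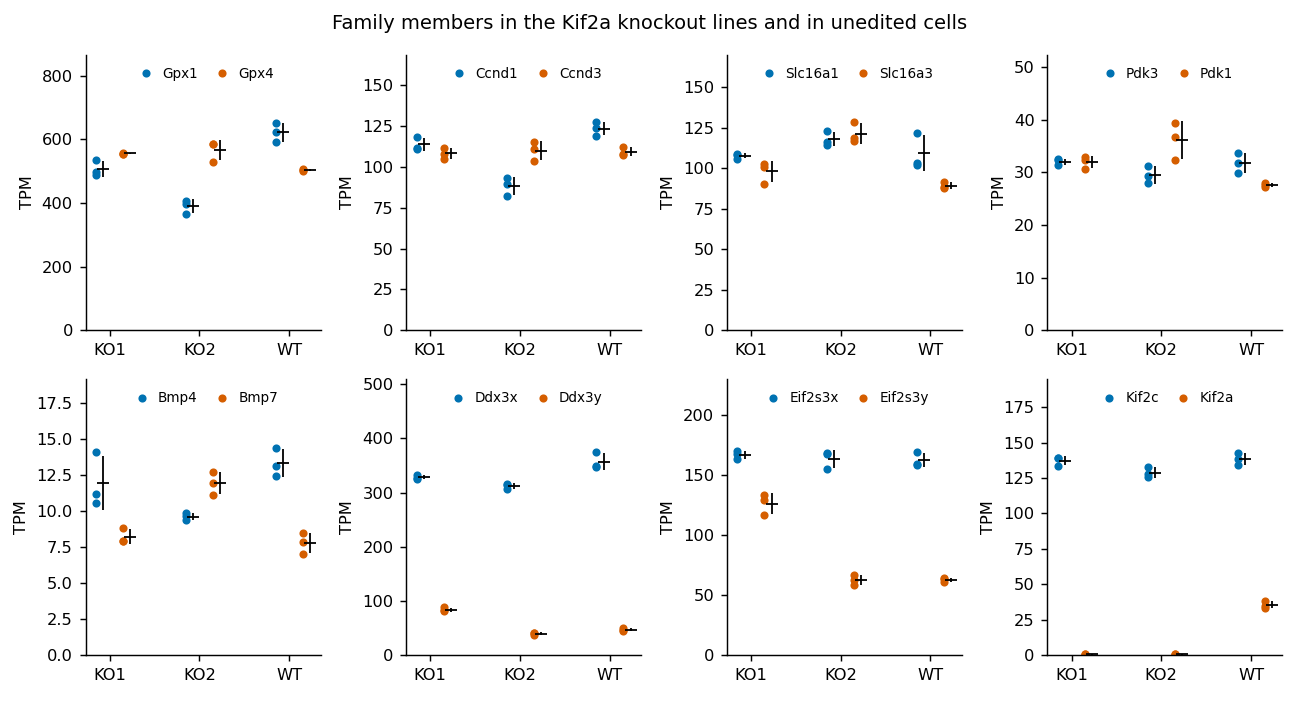
Level in TPM of family members in the 3 libraries of KO1, KO2 and WT, with the mean and SD as a bar beside the points. Gpx4 lies above Gpx1 in both knockout lines and below it in WT, Ddx3y and Eif2s3y are highest in KO1, and Kif2a is near 0 in KO1 and KO2. The order of Gpx1 and Gpx4 in WT depends on the length used.

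The other leading members called in KO1 were Slc2a3, Cldn4 and Ephb4, which were higher, and Vim, which was lower. Slc2a3 averaged 1127 ± 42.4 TPM in KO1 and 1296 ± 74 TPM in KO2, against 990 ± 12.4 TPM in WT (0.19 ± 0.04 and 0.41 ± 0.04, limma adjusted p = 0.000595 and 3.92e-13). Vim averaged 159 ± 7.44 TPM in KO1 and 127 ± 3.05 TPM in KO2, against 182 ± 4.97 TPM in WT (−0.19 ± 0.04 and −0.49 ± 0.04, limma adjusted p = 0.0147 and 1.37e-12). The KO1 calls of Vim, Cldn4 and Ephb4 were lost when single libraries were left out (limma adjusted p up to 0.251, 0.112 and 0.0781). The Y-linked partners stood apart in KO1. Ddx3y was at 87.6, 80.8 and 82.7 TPM in KO1 and 36, 40.6 and 41.1 TPM in KO2, against 44, 50.4 and 45.7 TPM in WT, and Eif2s3y at 134, 129 and 116 TPM in KO1 and 58.3, 62.3 and 66.8 TPM in KO2, against 61, 64.1 and 63.4 TPM in WT. All KO1 libraries lay above all others for both genes. Eif2s3y changed by 1.01 ± 0.06 and Ddx3y by 0.84 ± 0.06 in KO1 (limma adjusted p = 2.97e-20 and 3.15e-16), and Uty by 0.94 ± 0.10 (limma adjusted p = 3.16e-10). Their X partners Ddx3x and Eif2s3x averaged 329 ± 3.86 and 167 ± 3.35 TPM in KO1, against 357 ± 15.6 and 163 ± 6.04 TPM in WT.

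The core ES cell factors were close in all groups. Pou5f1 averaged 2037 ± 35.9 TPM in KO1 and 2085 ± 74.5 TPM in KO2, against 2086 ± 52.7 TPM in WT, and Nanog 1491 ± 27.9 and 1414 ± 41.6 TPM, against 1493 ± 19.6 TPM in WT. Sox2 averaged 338 ± 26.8 TPM in KO1 and 399 ± 17.4 TPM in KO2, against 355 ± 41.6 TPM in WT. None of the 3 was called in either line. Of the 23 ES cell genes on both lists, 2 were called in KO1 (8.7%, beside 1.08% over all genes tested), Dppa3 and Dppa5a, both higher. In KO2, 8 were called (34.8%, beside 18.5% over all genes tested), 4 higher and 4 lower. For all 359 listed family members tested, the shares were 4.18% in KO1 and 32.6% in KO2. The ES cell genes listed mostly stand at high levels, where a call is more likely, so no conclusion is drawn from their shares. Dppa3, a maternal factor that protects methylation, averaged 376 ± 10.2 TPM in KO1 and 354 ± 29.7 TPM in KO2, against 290 ± 12.9 TPM in WT (0.38 ± 0.06 and 0.31 ± 0.06, limma adjusted p = 4.07e-05 and 0.000164). Summed levels of other-cell markers differed too. The two-cell-like list summed to 15.1 to 16.6 TPM in KO1 and 11.4 to 15.2 TPM in KO2, against 9.7 to 10.8 TPM in WT. Its members stood at 2.65 TPM or less in WT, with at most 31 reads in any WT library, and several are near-identical copies. These sums thus rest on few reads. Their members did not all move alike. Zscan4c averaged 1.69 TPM in KO1 and 2.35 TPM in KO2, against 0.725 TPM in WT. Tcstv1 averaged lower in KO1 than in WT, as did Tcstv3 and Tdpoz4 in KO2. The fibroblast list, of which Fn1 is nearly all, summed to 1058 to 1085 TPM in KO1, 1118 to 1230 TPM in KO2 and 1003 to 1081 TPM in WT. The primitive endoderm list summed to 11.3 to 13.1 TPM in KO1, 14.7 to 17.4 TPM in KO2 and 10.6 to 11.9 TPM in WT. Of its members with a row, Gata4 and Hnf4a averaged 10.1 and 4.72 TPM in KO2, against 6.42 and 2.99 TPM in WT. Dab2 and Pdgfra went the other way, at 0.909 and 0.231 TPM in KO2, against 1.6 and 0.383 TPM in WT. The neuroectoderm list, of which Tubb3 is nearly all, summed to 87 to 92.3 TPM in KO1 and 58 to 64.2 TPM in KO2. In WT it summed to 92.6 to 102 TPM. The sums of the trophoblast, primitive streak and blood lists overlapped between WT and each line. Their part in the other results was not tested. Of the 15 genes named for a high spread in WT, 0 were called in KO1 and 1, Rps10, in KO2 (6.67%). Over all genes tested these shares were 1.08% and 18.5%. The 15 were chosen by their spread in the same WT libraries that enter the test. A high spread makes a call less likely, so no conclusion is drawn from these counts.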

How the data were processed

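Poly-A RNA of mouse ES cells was sequenced in 3 WT, 3 KO1 and 3 KO2 libraries with a stranded TruSeq kit as paired ends, per the labels. HISAT2, DESeq2 and the GRCm38 build are named in the submitters' processing notes; versions, annotation, gene filter and use of strand in counting: not given in the sources used here. What the authors deposited is a signal for each gene, already scaled per library; 15526 rows gave 15504 symbols. In each library 100% of values were whole multiples of 1 step (within 0.05 reads), which gave the whole reads and depths of 14960295 to 18814858. The plan foresaw limma on log2(value + 1), which was used.

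TPM was computed from recovered reads and summed exon length in GENCODE M21, matched by symbol for 99.2% of symbols (130 through an older symbol); symbols without a length took 0.238% of WT reads. Spread was the SD of log2(value + 1) after median-ratio scaling, against the genes nearest in level. limma 3.58.1 (trend, robust, R 4.3.3) tested genes whose mean value was at least 10, called at an adjusted p under 0.05. Alternatives were edgeR 4.0.16 and DESeq2 1.42.0 on recovered reads, other pseudocounts, scalings, filters and lengths, a replicate block, and each library left out. The limma and edgeR calls and the measure of relative spread were first tested on simulated data, and the other alternatives were not.

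Members and lists were chosen with earlier results of these data known. Named are the 20 highest genes, leading and second family members and members under 1 TPM, markers, the 15 genes of highest and 10 of lowest spread, and leading members called in a knockout line; predicted genes were counted only, and a few items are not reported here. Other family members and the X and Y copies were named after their values were seen. The 6 families of X and Y paralogs and the kinesin-13 family were added after the table was seen. Promoters are from RefSeq (GRCm38.p6); only 78.5% of protein-coding genes had one, so promoter features were not compared between levels.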

Additional observations from a re-analysis of the deposited data

Results flagged for a closer look

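The results below had a change against WT in KO2 that differed from that in KO1 by the limma test of KO2 against KO1 (Benjamini-Hochberg adjusted over 10225 genes), and are given as the log2 difference ± SE. Ddx3y differed by −1.07 ± 0.06, Eif2s3y by −0.99 ± 0.06 and Uty by −1.09 ± 0.10 (limma adjusted p = 3.09e-20, 3.09e-20 and 1.27e-12), the 3 Y-linked genes that were higher in KO1. Lower in KO2 than in KO1 were Gpx1 (−0.36 ± 0.05, limma adjusted p = 1.02e-07), Ccnd1 (−0.35 ± 0.05, limma adjusted p = 1.06e-06) and Vim (−0.30 ± 0.04, limma adjusted p = 2.26e-06). Higher in KO2 were Slc16a3 (0.33 ± 0.05, limma adjusted p = 5.71e-06), Slc2a3 (0.22 ± 0.04, limma adjusted p = 1.91e-05), Bmp7 (0.53 ± 0.12, limma adjusted p = 0.00249), Gata4 (0.55 ± 0.13, limma adjusted p = 0.00359), Dppa5a (0.12 ± 0.04, limma adjusted p = 0.0252), Pdk1 (0.19 ± 0.06, limma adjusted p = 0.0399) and Slc16a1 (0.15 ± 0.05, limma adjusted p = 0.0486).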

How the results depend on the processing

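The number of genes at 1 TPM or more in WT (13093) was 12883 with the longest transcript as the length and 13067 to 13098 with a WT library left out. The 10 highest genes held 6.84% of TPM with the longest transcript as the length. The leading member was the same in 111 of 119 families with that length and in 104 without length scaling. Genes of high spread numbered 41 on the deposited scale, 61 with a pseudocount of 0.1 and 70 and 55 with a narrower and a wider window of neighbours in level. Calls in KO1 were 50 to 168 and in KO2 1319 to 1806 with a library left out; with quantile normalization the splits were 64 higher and 37 lower in KO1 and 926 and 915 in KO2, and with edgeR 69 and 48 in KO1 and 951 and 929 in KO2. With the replicate number as a block, 88 and 1712 genes were called. Libraries with the same number correlated at −0.129 to 0.0263 in their deviations, and those with unlike numbers at −0.0918 to 0.166. The labels do not say what the number marks, and these values cannot decide whether it pairs the samples. Of the named KO1 calls, those of Vim, Cldn4, Ephb4 and Dppa5a were lost without single libraries, and of the KO2 calls, those of Ephb4, Slc16a1, Bmp4 and Ddx3y; 222 of 252 such values kept their call. Slc16a1 in KO2 was also lost with edgeR and DESeq2 (adjusted p = 0.0904 and 0.132). The cause was not tested. Depth limits members under 1 TPM, which rest on 51 reads or fewer per library.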
